A study of Mus musculus with 104 samples.

Results

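The genes of the major histocompatibility complex (MHC) class I and the gene of their shared light chain were followed across 3 mouse strains, 4 brain regions and 3 ages. The set held 9 genes, namely H2-D1, H2-K1, H2-Q1, H2-Q7, H2-Q8, H2-Q10, H2-T10, H2-T23 and B2m. Its probes were all array probes whose name in the file, or the current symbol of their RefSeq accession, was one of these genes, a rule on names that uses no measured value. The genes are 9 of 19505 with a current symbol on the array design used for most arrays. There were 19 such probes among 41174 on that design: 2 for H2-D1, 3 for H2-K1, 3 for H2-Q1, 1 each for H2-Q7, H2-Q8, H2-T10 and H2-T23, 4 for H2-Q10 and 3 for B2m. The second design, used for the CBA hypothalamus and the BALB frontal cortex, held the same 19 and a further 75 control probes made against B2m, or 94 of 43674.

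A class I molecule is a heavy chain that holds a short peptide, paired with beta-2 microglobulin, the product of B2m, without which most heavy chains do not reach the cell surface. H2-D1 and H2-K1 encode the classical heavy chains, which show peptides from inside the cell to CD8 T cells. The genes of the Q and T regions encode nonclassical heavy chains. H2-Q7 encodes the surface molecule Qa-2, H2-Q10 a secreted chain known mainly from liver, H2-T23 the Qa-1 molecule that natural killer cell receptors read, and H2-T10 a chain recognised by gamma delta T cells. Interferons induce most of these genes. In the brain, class I is found on microglia and endothelium and at low levels on neurons, where H2-K1, H2-D1 and the class I receptor PirB are known for limiting synaptic plasticity. BALB, C57BL/6 and CBA mice carry the d, b and k haplotypes of the mouse MHC, whose class I alleles differ in sequence and in part in gene number.

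Whole tissue RNA was hybridized in 1 colour to Agilent whole mouse genome arrays with 60-mer probes, and 96 arrays with scanner files were used. Young mice were 2 to 3 months old in every cohort, and middle-aged mice were 12 to 13 months old. The C57BL/6 cerebellum was measured in 4 young, 2 middle-aged and 6 aged (21 to 23 months) mice, and the hypothalamus labelled C57BL6/J in 5 young and 5 aged (22 to 24 months) mice. The BALB hypothalamus was measured in 7 young, 5 middle-aged and 6 aged (20 to 23 months) mice, and the CBA hypothalamus in 7 young, 5 middle-aged and 8 aged (21 to 23 months) mice. Arrays labelled BALB cerebellum came from 5 young, 6 middle-aged and 4 aged mice, and arrays labelled BALB striatum from 3 young, 5 middle-aged and 5 aged mice, both aged groups being 21 to 23 months old. Frontal cortex came from female BALB mice, 4 young and 4 old (15 to 16 months). All other mice were male. The labels give no transgene and no treatment for any group. By the study's methods, mice of the BALB and C57BL/6 hypothalamus and cerebellum cohorts were drawn at random after recordings of home cage behavior. The CBA mice are not described there. Values are log2 intensities, quantile normalized within a cohort, and the number of arrays limits the precision of each.

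Between 56.1% and 92.3% of the probes of an array were well above background, and no member spot was saturated. Marker genes of brain regions went against part of the labels. On the arrays labelled BALB cerebellum the mean log2 signal of 9 cerebellar genes was 7.57 to 10.48 in young and middle-aged mice and 13.21 to 14.24 in aged mice. On the arrays labelled BALB striatum it was 13.04 to 14.21, with aged array 3 at 7.97. It was, in the C57BL/6 hypothalamus, 12.1 on aged array 1 and 7.275 to 7.75 on the others, and in the C57BL/6 cerebellum it was 11.29 on young array 1 and 12.65 to 13.13 on the others. Fewer cells of a type and less RNA per cell cannot be told apart in whole tissue.

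All heavy chain probes lie within a few megabases of chromosome 17 and match sequences that are alike between genes. The probes were therefore compared with each other. Positions are those of the array files (mouse build mm7), and a span longer than the 60 bases of a probe, found for 5 of the 19, means that the probe aligns across a gap. A_52_P582814, which the files name H2-Q1, lies at chr17:33480880-33480939. That is nearer the H2-Q8 probe (chr17:33492583-33492642) than the other H2-Q1 probes, and which gene A_52_P582814 reads was not tested. One H2-K1 probe (chr17:32077678-32077737, minus strand) and one H2-Q10 probe (chr17:33571803-33571862, plus strand) share a run of 20 bases, given in capitals.
H2-K1 A_52_P50496: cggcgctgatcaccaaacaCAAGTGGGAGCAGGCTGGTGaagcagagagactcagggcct
H2-Q10 A_52_P428354: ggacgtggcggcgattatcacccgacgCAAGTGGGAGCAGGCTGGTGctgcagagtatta

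The H2-T23 probe (chr17:34134435-34134671, minus strand) and the H2-Q7 probe (chr17:33494682-33494913, plus strand) share a run of 28 bases, also in capitals.
H2-T23 A_51_P237754: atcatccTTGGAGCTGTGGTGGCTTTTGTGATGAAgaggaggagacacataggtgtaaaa
H2-Q7 A_51_P262079: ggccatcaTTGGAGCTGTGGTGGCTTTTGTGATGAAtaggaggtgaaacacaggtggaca
Of all 171 pairs among the 19 probes, 3 shared a run of at least 12 bases. Probes were not compared with transcripts, so a probe without a shared run is not shown to read its own gene alone. The main H2-D1 probe (chr17:33361850-33362082, plus strand) shared none, nor did the H2-Q10 probe that the files also list for H2-Q1, H2-Q6 and H2-Bl (chr17:33574106-33574165, plus strand).
H2-D1 A_51_P496996: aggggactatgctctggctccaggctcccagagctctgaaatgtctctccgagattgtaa
H2-Q10 A_51_P496997: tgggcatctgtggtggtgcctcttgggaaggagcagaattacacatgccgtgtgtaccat

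An H2-Q1 probe, A_52_P231729 (chr17:33420381-33420440, plus strand), and a B2m probe, A_51_P129012 (chr2:121893518-121893577), are shown because both were called in comparisons of strains and of regions below, and the B2m probe A_51_P129006 (chr2:121893642-121893698) is set beside them. Their central 30 bases are given, with no capitals because no feature is marked.
H2-Q1 A_52_P231729: caaagtgttgtaatatttgctcttttaatg
B2m A_51_P129012: tacaaatccagtttctaatatgctatacaa
B2m A_51_P129006: tatcctagatagctgagcaataaatcttca

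In the aged C57BL/6 cerebellum, probes of the classical heavy chain H2-D1, of the Q region genes H2-Q1, H2-Q7 and H2-Q8 and of B2m rose against young mice. They were 5 of the 18 member probes that could be tested, where a probe is called when limma's log posterior odds of a difference (B) exceed 0, and 0.299% of all 34740 probes tested were called, 0.294% as rises. No member probe was called lower. H2-Q8 rose 2.11-fold and the other called probes 1.37- to 1.48-fold. The second probe named H2-D1, A_52_P246277, was not well above background on enough arrays to be tested. The files place it at chr17:34358688-34358747 on the minus strand, away from the main H2-D1 probe on the plus strand. Which gene A_52_P246277 reads was not tested. The study had named class I genes from these arrays and from the BALB hypothalamus, so the counts in these cohorts are not independent evidence of a direction.

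The H2-D1 probe A_51_P496996 read 12.63, 12.75, 13.01 and 12.75 in the 4 young C57BL/6 cerebella and 13.11, 13.26, 13.38, 13.2, 13.29 and 13.42 in the 6 aged ones, with 12.89 and 12.69 in middle-aged mice. Every aged array lay above every young array. The difference was 0.49 on the log2 scale (SE 0.10, B = 0.10, limma adjusted p = 0.174). B2m at A_51_P129006 read 12.42, 12.14, 12.39 and 12.13 in young and 12.8, 12.82, 12.86, 12.72, 12.82 and 12.99 in aged mice. Here too the groups were apart, and the difference was 0.57 (SE 0.09, B = 1.65, adjusted p = 0.0716). H2-Q8, another gene of the Q region, read 8.353, 7.64, 8.529 and 7.858 in young mice against 8.936 to 9.527 in aged mice, a difference of 1.08 (SE 0.19, B = 1.42).

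Across the set in this cohort, 12 of 18 probes had all aged arrays above all young arrays, against 1.59% of all probes, and 17 of 18 differences were positive, against 48.5%. The median difference over the member probes was 0.408, and over all probes tested -0.00756. The 3 probes of H2-K1, the other classical heavy chain, differed by 0.56, 0.53 and 0.36 without a call (B = -0.36, -0.17 and -3.1). H2-T23 differed by 0.42 (B = -0.27) and H2-T10 by 0.28 (B = -2.13), each with no overlap between groups. The B2m probe A_51_P129012 gave 0.37 (SE 0.18, B = -4.06), since aged array 6 read 13.71 and the other aged arrays 14.5 to 14.66. At the H2-Q1 probe A_52_P231729 the difference was negative, -0.49 (SE 0.23, B = -4), from 3 young and 6 aged values.

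The calls in the C57BL/6 cerebellum rested on few young mice. Without young array 2 or young array 4 there were 0 calls, without young array 1, whose cerebellar markers were low, there were 4, without aged array 2 or aged array 3 there were 3, and with slide as a fixed block there was 1 call, at a probe outside the 5. None of the 18 had an adjusted p below 0.05 in limma, against 0.0403% of all probes. An unadjusted p below 0.05 was found at 14 of the 18, and at 2467 of all 34740 probes. Within each of the 3 slides that held both ages the differences of H2-D1 (0.366 to 0.57) and of B2m at A_51_P129006 (0.384 to 0.701) were positive.

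In the aged BALB hypothalamus, 9 of 18 tested member probes rose and none fell, against 0.691% of the 27634 probes tested (0.641% as rises). The called probes belonged to H2-D1, H2-K1, H2-Q1, H2-Q7, H2-Q10, H2-T10 and H2-T23, with folds of 1.41 to 1.75. The files list 1 of the called H2-Q1 probes, A_51_P425048, for H2-Q2 too. Both called H2-Q10 probes may read other genes, as A_51_P496997 is also listed for H2-Q1, H2-Q6 and H2-Bl and A_52_P428354 holds the run shared with H2-K1. The called H2-Q7 and H2-T23 probes share a run of 28 bases, so their rises may not be separate. The H2-Q10 probes A_51_P230267 and A_51_P230269 differed by 0.18 and 0.29 and were not called. At an adjusted p below 0.05 the count was 8, against 0.532% of all probes. The B2m probes differed by about as much, 0.61, 0.70 and 0.61, but were not called (B = -0.40, -0.14 and -2.28). All 18 differences were positive, against 53.4% of all probes, with a median of 0.619 against 0.0135 over all probes.

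H2-D1 at A_51_P496996 read 12.31 to 13.1 (median 12.53) in the 7 young BALB hypothalami, 12.6 to 13.13 in the 5 middle-aged ones and 13.15 to 13.65 (median 13.47) in the 6 aged ones. Aged and young arrays did not overlap, and the difference of 0.80 (SE 0.13, B = 3.79, adjusted p = 0.00504) was a 1.74-fold rise. The H2-T10 probe A_51_P432538, which the files also list for H2-T22, was the other one without overlap, at 10.91 to 11.43 (median 11.12) in young and 11.48 to 11.78 (median 11.67) in aged mice. It rose by 0.49 (SE 0.09, adjusted p = 0.0166). Separation of all arrays at 2 of 18 probes compares with 0.608% of all probes.

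A_52_P582814, named H2-Q1 but nearer the H2-Q8 probe, read 11.08 to 12.13 (median 11.34) in young mice. In aged mice it read 12.01 to 12.38 (median 12.33), a rise of 0.81 (SE 0.13, limma adjusted p = 0.00607). Its groups overlapped through young array 1, the highest young array at 12.13. H2-T23 read 12.66 to 13.67 (median 13.02) in young and 13.51 to 14.03 (median 13.89) in aged mice and rose by 0.74 (SE 0.14, adjusted p = 0.018). H2-Q7 rose by 0.70 (SE 0.13, adjusted p = 0.0147).

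H2-K1 at A_51_P198434 read 12.05 to 13.58 in young and 12.89 to 13.52 in aged mice and was not called (0.70, SE 0.19, B = -1.01), while its dimmer probe A_52_P474242 rose by 0.62 (B = 0.30, adjusted p = 0.0614). Young array 1 held the highest young value at A_51_P198434 too. Without that array 14 member probes were called in place of 9, and the share of all probes called in that fit is not given. H2-D1 differed by 1.05, 0.716 and 0.81 within the 3 scan days and by 0.335 to 1.05 within the 3 slides that held both ages.

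In the aged CBA hypothalamus 7 of 17 tested member probes rose and none fell, against 0.372% of 27689 probes (0.3% as rises). They were probes of H2-D1, H2-K1, H2-Q1, H2-Q7, H2-Q10 (A_51_P230269 and A_51_P496997) and B2m. A_51_P230269 was called in 3 of 8 other settings, with differences of 0.228 to 0.973. It stayed called in 4 of 15 fits that left out an array. The limits given above for A_51_P496997 and for the run that H2-Q7 shares with H2-T23 hold here too. Haplotypes differ in part in gene number, and which class I genes the probes, that of H2-Q7 among them, read in CBA mice was not tested. No member probe passed an adjusted p of 0.05 in limma, against 0.101% of all probes. An unadjusted p below 0.05 was found at 16 of 17, and at 1801 of all 27689 probes. The median difference was 0.608, against -0.00872 over all probes, and 17 of 17 were positive, against 47.2% of all probes. The second H2-D1 probe and H2-Q1 A_52_P231729 were too dim to be tested.

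H2-D1 at A_51_P496996 read 11.64 to 12.43 (median 12.22) in the 7 young CBA mice, 12.23 to 12.81 in the 5 middle-aged and 12.18 to 13.44 (median 13.06) in the 8 aged mice. All aged arrays but array 8 lay above every young array. The rise was 0.86 (SE 0.17, B = 1.85, adjusted p = 0.052), or 1.81-fold. B2m at A_51_P129012 read 9.949 to 10.45 (median 10.27) in young and 10.45 to 11.14 (median 10.65) in aged mice and rose by 0.47 (SE 0.10, adjusted p = 0.0601). H2-K1 at A_51_P198434 rose by 0.82 (SE 0.19, B = 0.13). H2-T10 differed by 0.23 (SE 0.10, B = -3.57) and H2-Q8 by 0.08 (SE 0.22, B = -5.82), and neither was called.

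Aged array 8 stood apart in this cohort. Its mean over 12 heavy chain probes was 10.75, where the median of the aged arrays was 11.77, and its mean over microglial genes was 7.433, the lowest of the cohort. Leaving it out raised the count from 7 to 12, and leaving out young array 1 or young array 6 lowered it to 4. Scaling to the 75th percentile in place of quantile normalization also gave 4. Shares of all probes called in those fits are not given. H2-D1 differed by 0.637 to 1.28 within the 5 slides that held both ages.

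**Figure D1:**
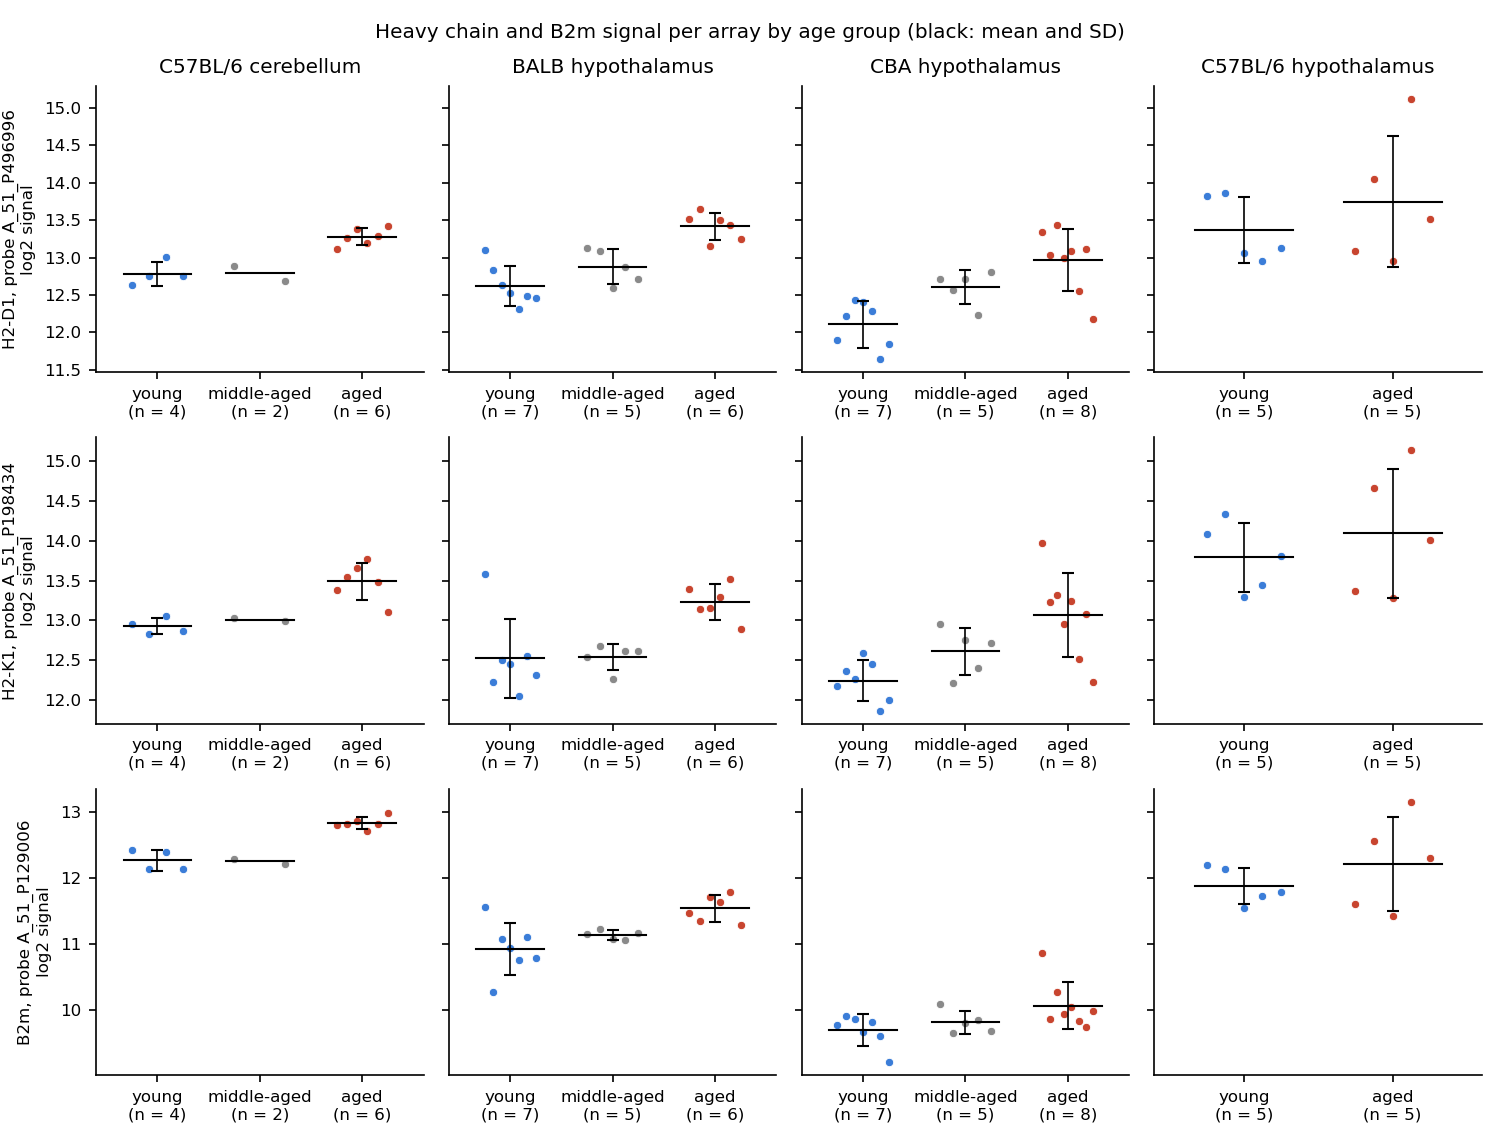
Normalized log2 signal of H2-D1 (A_51_P496996), H2-K1 (A_51_P198434) and B2m (A_51_P129006) on every array of 4 cohorts, with age group on the x axis, points for arrays and bars for the mean and SD (SD for groups over 2). The 6 aged C57BL/6 cerebella lay above the 4 young ones for all 3 probes, while the aged C57BL/6 hypothalami ran from 12.96 to 15.12 for H2-D1 and overlapped the young ones.

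No member probe was called in limma among 19 tested in the C57BL/6 hypothalamus, against 0.118% of 34696 probes. An unadjusted p below 0.05 was found at 1 of 19, and at 1575 of all probes. H2-D1 read 13.83, 13.87, 13.06, 12.95 and 13.13 in young and 13.09, 14.05, 12.96, 15.12 and 13.51 in aged mice. The groups overlapped, with the highest and nearly the lowest value both in aged mice, and the difference was 0.38 (SE 0.39, adjusted p = 0.997), or 0.04 (SE 0.27) without aged array 4. B2m at A_51_P129012 differed by 0.45 (SE 0.31) and H2-T10 by 0.01 (SE 0.18). Of the 19 differences 15 were positive, against 47.9% of all, with a median of 0.337, against -0.00769 over all probes. H2-D1 was higher in aged mice on 3 of 5 slides (-0.916 to 2.07), and differed by -0.0417 within the first scan day (4 against 4 mice) and by 2.07 within the second (1 against 1, aged array 4 among them). The count stayed at 0 without aged array 1, whose cerebellar markers were high.

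The arrays of this cohort differed from each other more than the ages did. The mean of 12 heavy chain probes was 12.51, 12.59, 11.75, 11.7 and 11.9 in young and 11.8, 12.71, 11.74, 13.61 and 12.19 in aged mice. The same 4 arrays that exceeded 12.5 were those with the highest mean of 15 interferon-induced genes, namely 10.77 and 10.86 in young and 10.71 and 11.53 in aged mice, where the others ran from 9.333 to 10.07. Mean microglial signal ran from 10.63 to 11.18 in young and from 10.55 to 11.15 in aged mice. Thalamic marker genes were higher in aged mice at all 7 probes, with 2 called (Prkcd by 2.31 and Vav3 by 1.18), and their part in the class I values was not tested.

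One H2-Q1 probe went the other way in C57BL/6 mice. A_52_P231729 read 12.09, 12.57, 12.54, 12.2 and 12.95 in young and 11.66, 11.97, 12.26, 12.17 and 11.87 in aged hypothalami, a difference of -0.49 (SE 0.17, unadjusted p = 0.0173, adjusted p = 0.997). It was lower in aged mice on 5 of 5 slides here and on the 2 slides of the C57BL/6 cerebellum that gave a value for both ages (-0.644 and -0.189). The other H2-Q1 probes differed by 0.41 and 0.25 in the same hypothalami.

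Whether the age difference itself differed between BALB and C57BL/6 hypothalamus was tested as an interaction. No member probe was called in limma, nor was any of 35088 probes (0%). An unadjusted p below 0.05 was found at 1481 of all probes and at 1 of 19 member probes, H2-T10. Its interaction was 0.46 (SE 0.20, adjusted p = 0.996), a larger age difference in BALB mice. For H2-D1 it was 0.37 (SE 0.41), and 0.162 to 0.727 with single arrays left out. All 19 interactions were positive, that is, larger in BALB mice, against 53.2% of all probes, with a median of 0.324 against 0.0201 over all probes. The member probes share arrays, so these are not separate events, and no single probe passed the test.

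**Figure D2:**
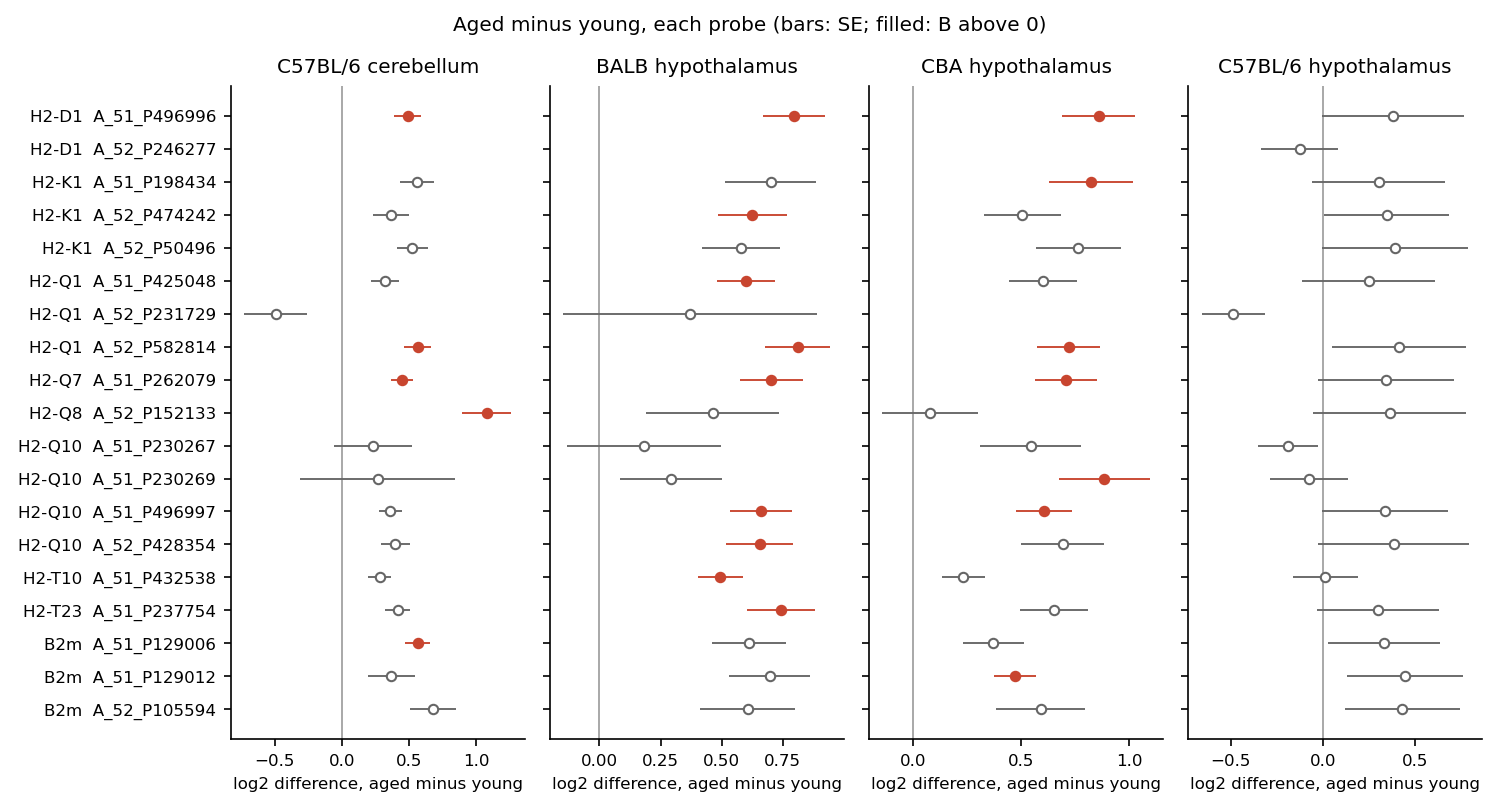
Difference between aged and young mice (log2 scale, points with SE bars) at the 19 member probes in C57BL/6 cerebellum and in BALB, C57BL/6 and CBA hypothalamus, filled where B exceeded 0. Filled points number 5, 9, 0 and 7, all to the right of 0, and probes that were not tested are missing.

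Middle-aged mice were compared with the young and with the aged. In the BALB hypothalamus no member probe was called between young and middle-aged mice, against 0.164% of all probes, and the median difference was 0.196. In limma 1 of 18 member probes had an unadjusted p below 0.05, against 3145 of all 28041 probes. H2-D1 differed by 0.26 (SE 0.13), H2-K1 at A_51_P198434 by 0.02 (SE 0.20) and H2-T10, with the lowest p, by 0.31 (SE 0.10, adjusted p = 0.339). Between middle-aged and aged mice no member probe was called either (0.171% of all probes). Of the 18, 12 had an unadjusted p below 0.05 in limma, against 2341 of all 26922 probes.

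At 6 of the 18 probes every aged array exceeded every middle-aged array in the BALB hypothalamus, against 1.04% of all probes. They were probes of H2-D1, H2-K1, H2-Q1, H2-Q7, H2-T23 and B2m. H2-T23 differed by 0.62 (SE 0.15, adjusted p = 0.288) and H2-D1 by 0.54 (SE 0.14, adjusted p = 0.332). With slide as a fixed block 4 member probes were called in this comparison, and the share of all probes called in that fit is not given.

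In the CBA hypothalamus the middle-aged arrays were higher than the young ones at 17 of 17 probes, against 49.8% of all, with a median of 0.337. No probe on the arrays was called (0% of 28290). In limma 7 of 17 member probes had an unadjusted p below 0.05, against 785 of all probes. H2-D1 differed by 0.50 (SE 0.19, adjusted p = 1). The 2 middle-aged C57BL/6 cerebella had mean heavy chain signals of 11.54 and 11.63, within the young range of 11.56 to 11.78 or just under it, and the aged mice ran from 12.02 to 12.26.

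**Figure D3:**
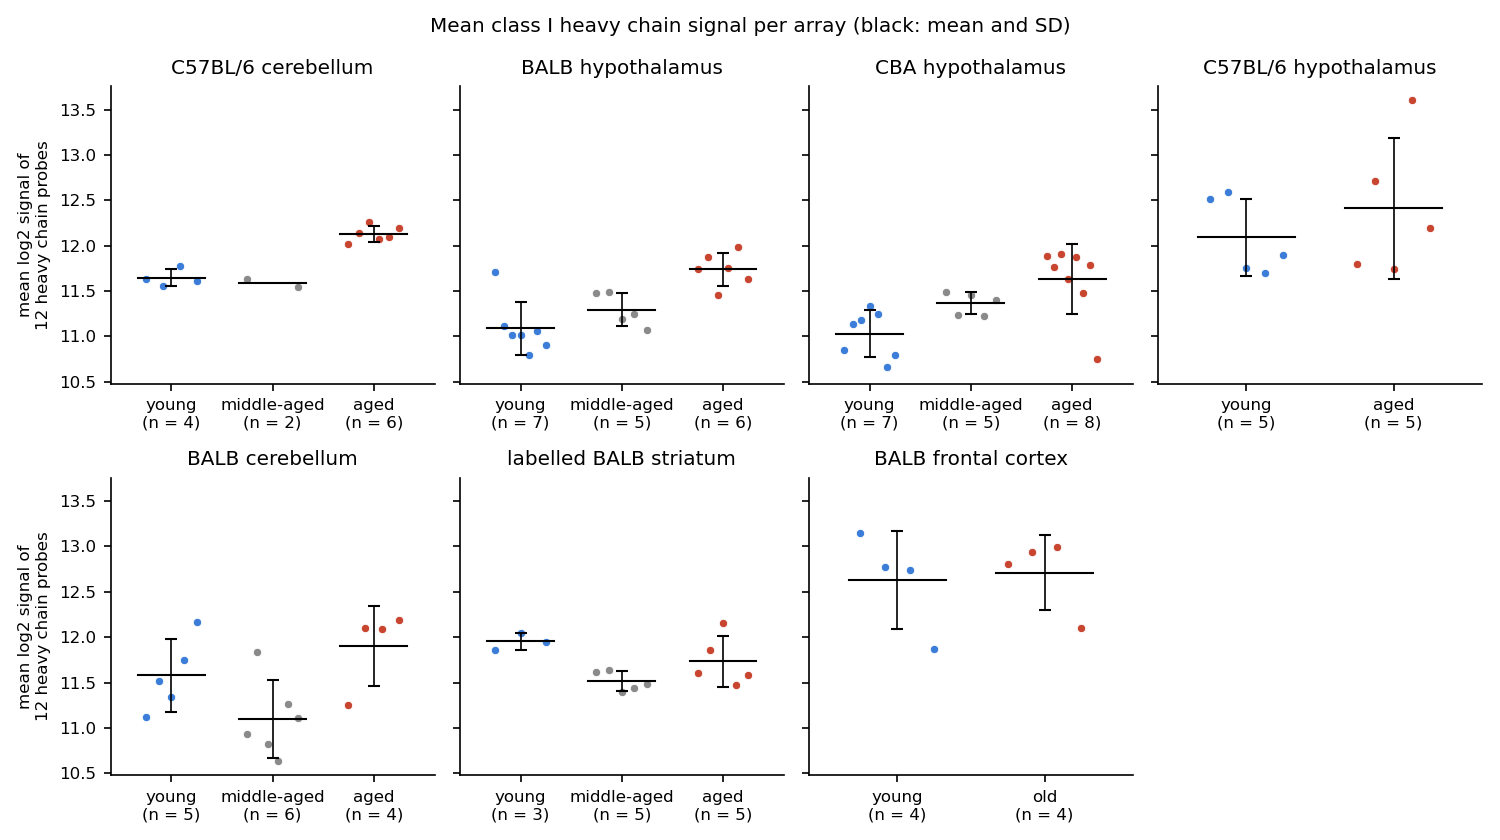
Mean normalized log2 signal of the 12 heavy chain probes detected on every array, per array (points) and age group in 7 cohorts, each cohort normalized on its own. Medians of young, middle-aged and aged mice were 11.02, 11.25 and 11.75 in the BALB hypothalamus and 11.14, 11.4 and 11.77 in the CBA hypothalamus, and in the C57BL/6 cerebellum aged and young arrays did not overlap.

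On the arrays labelled BALB striatum no member probe was called, nor was any of 32240 probes (0%, limma). No member probe had an unadjusted p below 0.05, against 164 of all probes. The differences were positive at 1 of 17 probes, against 47.1% of all, with a median of -0.196. H2-D1 read 13.73, 13.99 and 13.79 in young and 13.37 to 13.93 in aged mice (-0.17, SE 0.18). With single arrays left out it differed by -0.231 to -0.0891, and no member probe was called. Aged array 3, whose cerebellar markers were low, had a mean over 12 heavy chain probes of 12.16. The other aged arrays had means of 11.47 to 11.86. H2-T10 read 12.45 to 12.55 in young and 12.05 to 12.33 in aged mice, without overlap, as was true of 1.77% of all probes in either direction.

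On the arrays labelled BALB cerebellum 0 of 17 member probes were called by B, against 5.95% of 32551 probes. In limma 8413 of all probes had an unadjusted p below 0.05, and 1 of the 17 member probes. That probe, H2-Q1 A_52_P231729, read 4.804 to 6.273 in young and 7.239 to 7.861 in aged mice (1.72, SE 0.41, B = -0.73, adjusted p = 0.0109, where 13.5% of all probes had an adjusted p below 0.05). Age cannot be told apart here from the change in cerebellar marker genes given above, and microglial genes were lower in aged mice at 9 of 9 probes, 5 of them called. H2-D1 differed by 0.45 (SE 0.36) and the B2m probes by -0.18, -0.21 and -0.31. The H2-D1 difference was 0.294 to 0.863 with single arrays left out, 0.863 being that without aged array 1, and -0.433 with slide as a fixed block.

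In the frontal cortex of female BALB mice no member probe was called and no probe at all (0% of 31477, limma). At an unadjusted p below 0.05 there were 0 member probes, against 1471 of all probes. H2-D1 read 14.73, 14.27, 14.48 and 13.6 in young and 14.53, 14.7, 14.84 and 13.98 in old mice (0.24, SE 0.29). The old mice were 15 to 16 months old, younger than the aged mice of the other cohorts.

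On the second array design B2m was also read by 23 identical control copies of 1 probe, spread over the array. Their spread on an array reflects differences between spots and leaves out those of labelling and hybridization. The SD between copies on an array was 0.0669 (median over CBA arrays), and the SD between mice was 0.24 in the aged and 0.19 in the young CBA group. Averaged over the copies, B2m was 8.53 to 9.054 (median 8.848) in 7 young and 8.906 to 9.709 (median 9.218) in 8 aged CBA hypothalami. The groups overlapped, with 6 of 8 aged arrays above all young ones, and the difference of 0.428 had p = 0.00171 in a two-sided exact permutation test over 6435 splits. In limma 5 of the 23 copies were called, and B2m at the separate probe A_51_P129006 differed by 0.37 (B = -3.07) without a call. In the frontal cortex the difference was 0.461 between 4 old and 4 young mice (exact permutation p = 0.343, over 70 splits), whose SDs were 0.91 and 0.48.

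The remaining B2m control probes were graded by their match to the sequence of the identical copies, at small shifts only. They were not compared with the whole B2m transcript, so a short run does not show a poor match to B2m. In the CBA hypothalamus the 23 identical copies averaged between 8.913 and 9.101, the 9 probes with 57 to 59 matching bases between 8.146 and 9.183, and the 13 with a matching run of at least 30 bases between 8.008 and 9.735. The 11 probes with a run of 20 to 29 bases ran from 2.016 to 12.7, and the 10 with a run of 12 to 19 bases from 1.908 to 7.88, 6 of them well above background on no array. The 9 with a run under 12 bases ran from 1.737 to 9.97, with 5 well above background on no array.

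**Figure D4:**
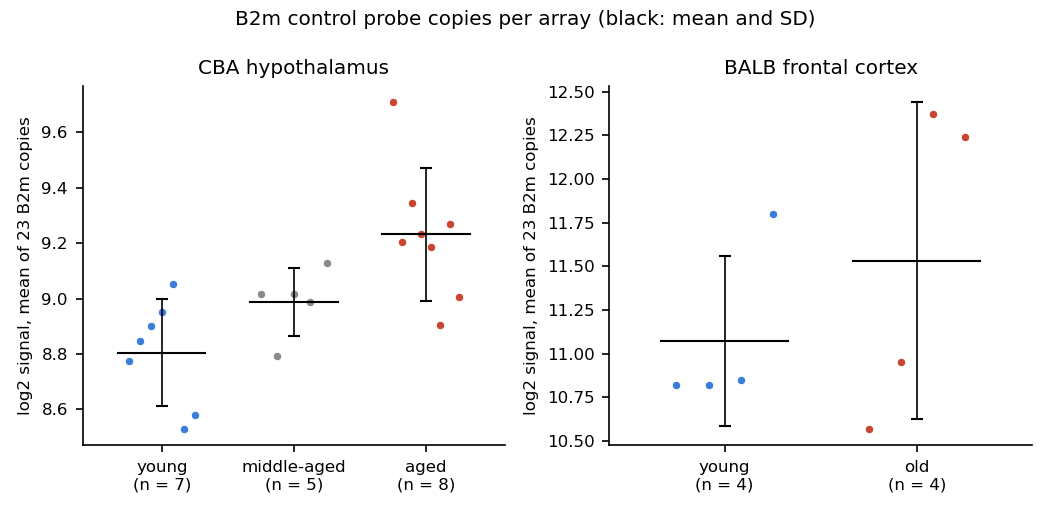
Mean normalized log2 signal of 23 identical B2m control copies on each array of the CBA hypothalamus and the BALB frontal cortex, by age group, with the mean and SD. Aged CBA mice averaged 9.23 and young ones 8.81, and the old and young frontal cortex arrays overlapped.

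Between young mice of different strains, some probes of a gene were often called and others of the same gene were not. No larger share of member probes than of all probes was called. Strains were compared after 1 normalization over both cohorts, which were run on different slides and scanner software, so strain and run cannot be told apart. Between BALB and C57BL/6 hypothalamus 3 of 19 member probes were called, 1 higher and 2 lower in BALB, against 19.9% of 33521 probes, and 5 were called without BALB young array 1. H2-Q1 at A_52_P231729 read 6.115 to 8.249 (median 7.374) in BALB and 11.7 to 12.57 (median 12.16) in C57BL/6 mice. The groups were far apart, and the difference of -4.76 (SE 0.32, adjusted p = 4.14e-07) was a 27.1-fold lower signal in BALB. The other H2-Q1 probes differed by -0.90 (B = -1.38) and -0.02 (SE 0.19).

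H2-T10 averaged 11.34 in BALB and 12.44 in C57BL/6 hypothalamus (2.15-fold lower in BALB, adjusted p = 2.77e-05). H2-Q10 at A_52_P428354 was higher in BALB, 10.82 against 9.59 (1.23, SE 0.23, adjusted p = 0.000945). The other H2-Q10 probes differed by 0.19 at most in either direction. H2-D1 differed by -0.24 (SE 0.20), H2-T23 by 0.18 (SE 0.20) and B2m by -0.36, 0.23 and 0.63, none of them called.

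Between CBA and BALB hypothalamus, which also differ in array design, 11 of 18 member probes were called, 7 higher and 4 lower in CBA, beside 63.5% of 27874 probes and a shift of 0.17 in the median of all probes. The H2-K1 probe A_52_P50496, with the run shared with H2-Q10 shown above, read 10.92 to 11.7 in CBA and 7.999 to 8.981 in BALB, a difference of 3.11 (SE 0.17, adjusted p = 2.9e-10) or 8.63-fold. The other H2-K1 probes differed by 0.84 (called) and 0.46 (B = -5.78), and the H2-Q10 probe that shares the run by -0.54. H2-T10 was higher in CBA by 1.25 (SE 0.09). H2-Q1 at A_52_P231729 was well above background on 1 of 7 CBA arrays and on all 7 BALB arrays (3.70 against 6.49), and the difference was -2.79, or -0.847 with normexp background correction. The other H2-Q1 probes were called higher in CBA. With single arrays left out they differed by 0.652 to 0.773 (A_51_P425048) and by 0.998 to 1.2 (A_52_P582814). B2m differed by -1.35 (SE 0.17) at A_51_P129012, by -1.21 at A_52_P105594 and by -0.17 (SE 0.17) at A_51_P129006.

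**Figure D5:**
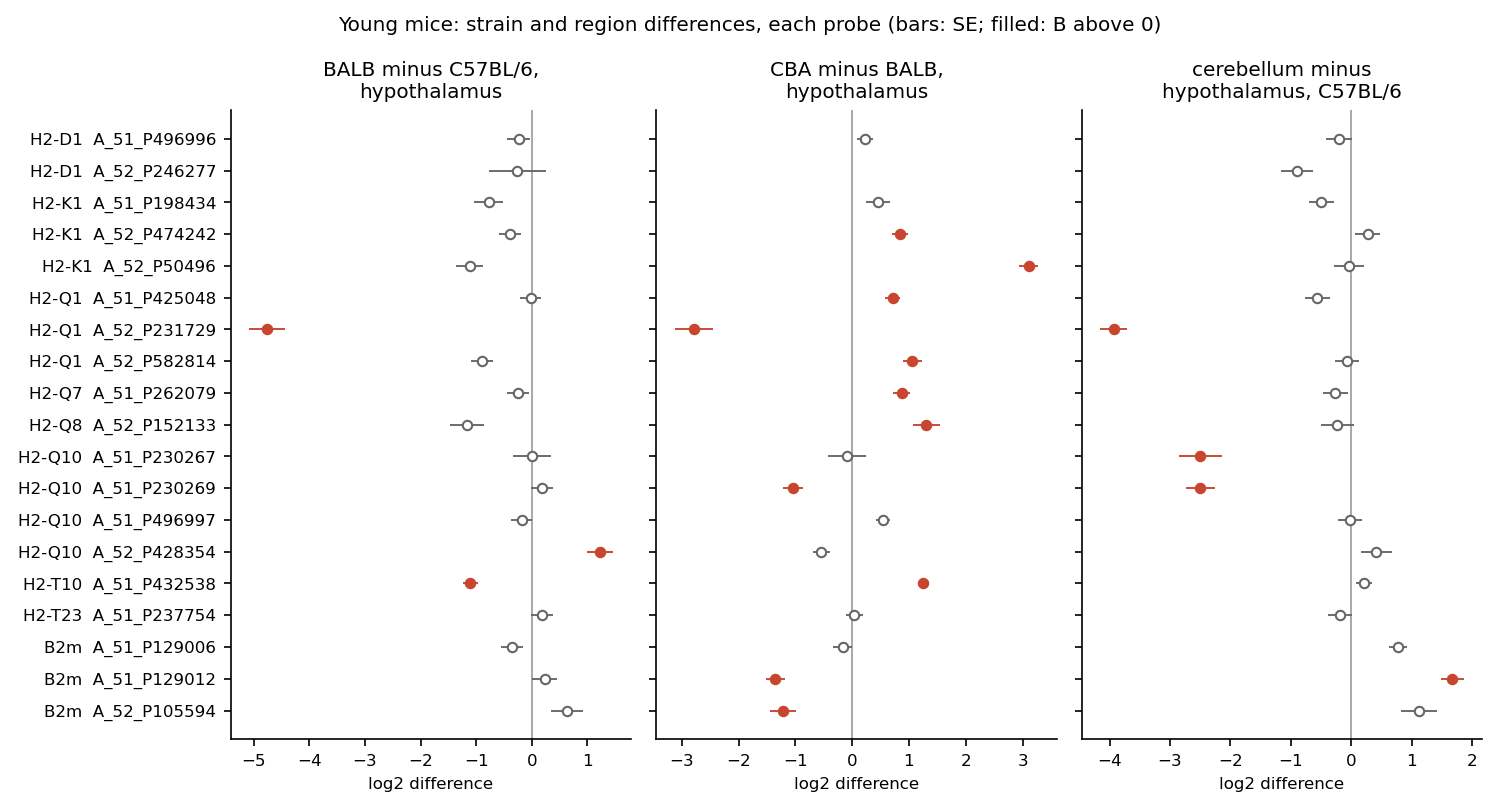
Difference in normalized log2 signal (points with SE bars) at the member probes in 3 comparisons of young mice, BALB minus C57BL/6 hypothalamus, CBA minus BALB hypothalamus and C57BL/6 cerebellum minus hypothalamus, filled where B exceeded 0. The x axes differ between panels, and H2-Q1 A_52_P231729 lies at -4.76, -2.79 and -3.93, of which the second rests on 1 of 7 CBA arrays above background.

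Between cerebellum and hypothalamus of young C57BL/6 mice, which shared strain but not slides, 4 of 19 member probes were called, 1 higher and 3 lower in cerebellum, against 34.2% of 35011 probes. H2-Q1 at A_52_P231729 averaged 8.34 in cerebellum and 12.28 in hypothalamus (-3.93, SE 0.22, adjusted p = 1.59e-06), or 15.3-fold lower. B2m at A_51_P129012 averaged 14.24 and 12.57 (1.67, SE 0.19, adjusted p = 4.39e-05), or 3.18-fold higher, with no overlap, and the other B2m probes differed by 0.77 and 1.12 in the same direction without a call. Marker genes of other cells moved with them: of choroid plexus genes 5 of 6 were called higher in cerebellum (median 3.24), of red blood cell genes 3 of 3 (2.19) and of endothelial genes 4 of 9 (0.807), and their part in the B2m values was not tested. The H2-Q10 probes A_51_P230267 and A_51_P230269 differed by -2.50 each, where 2 of 4 cerebellum arrays were well above background, and by -0.726 and -0.908 with normexp background correction. A_51_P230267 kept its call in 2 of 4 other settings, and lost it with 75th percentile scaling and with the replicate block. H2-D1 differed by -0.20 (SE 0.22) and the H2-K1 probes by -0.50, 0.27 and -0.04, without a call.

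The promoters of the members were searched for short motifs known to be bound by interferon regulatory factors, NF-kappaB and other factors, and sequences were at hand for 6 of the 9 genes (RefSeq, build GRCm38.p6, 250 bases before to 50 after the start). Both strands were searched for a strict form of the interferon response element (GAAA, 2 bases of any kind, GAAA), a kappaB site (GGGA, 4 bases of any kind, CC), TGACGTCA (a cAMP response element) and TGACGC (as in the X2 box). The stretches below show matched letters in capitals, where overlapping matches of one motif are joined. H2-K1 (chr17:34000379-34000468, minus strand) and H2-D1 (chr17:35262913-35263002, plus strand) are alike at 85 of 90 positions here.
H2-K1: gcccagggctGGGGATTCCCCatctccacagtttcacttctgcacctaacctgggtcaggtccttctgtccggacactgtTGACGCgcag
H2-D1: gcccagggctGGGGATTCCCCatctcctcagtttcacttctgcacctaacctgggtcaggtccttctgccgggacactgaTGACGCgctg
B2m (chr2:122147536-122147580, plus strand): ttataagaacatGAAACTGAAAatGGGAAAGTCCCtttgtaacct
H2-T23 (chr17:36032798-36032842, minus strand): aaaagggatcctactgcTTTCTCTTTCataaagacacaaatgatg
H2-Q7 (chr17:35439004-35439048, plus strand): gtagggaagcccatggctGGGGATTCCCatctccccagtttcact

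The strict form of the interferon motif was found in 2 of the 6 promoters, B2m and H2-T23, and in 3.44% of all 32851 promoters of that length. The kappaB motif was found in B2m, H2-K1, H2-D1 and H2-Q7 and in 20.7% of all promoters. TGACGC was found in H2-K1 and H2-D1 and in 7.4% of all, TGACGTCA in none of the 6 and in 1.79% of all, and the window of H2-Q10 held none of the motifs. These are matches of letters, without data on binding. Other forms of these elements were not searched for, so a promoter without a match may still hold such an element.

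Genes that make peptides and load them onto class I were measured beside the heavy chains. Of 12 such genes tested, 2 rose in the C57BL/6 cerebellum, the BALB hypothalamus and the CBA hypothalamus, and in each case they were Psmb8 and Psmb9, subunits of the immunoproteasome. Psmb8 differed by 0.78 (adjusted p = 0.113), 0.80 (adjusted p = 0.0359) and 0.80 (adjusted p = 0.0542) in these cohorts and Psmb9 by 0.65, 0.83 and 0.65. The other 10, among them transporter and chaperone genes, were not called, and the list medians were 0.121, 0.227 and 0.0694. None of the 12 was called in limma in the C57BL/6 hypothalamus, and 0 had an unadjusted p below 0.05 (Psmb8 by 0.34, SE 0.43).

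Of 11 regulators of class I transcription, 1 rose in the C57BL/6 cerebellum, Irf8, an interferon regulatory factor of myeloid cells (0.58, SE 0.12, adjusted p = 0.169), and none in the other cohorts, with 3, 0 and 2 at an unadjusted p below 0.05 in the BALB, C57BL/6 and CBA hypothalamus. Among other class I genes, H2-Q2 and H2-Q5 rose in the BALB hypothalamus by 0.68 and 0.61 (adjusted p = 0.0216 and 0.0283) and in the CBA hypothalamus by 0.68 and 0.61 (adjusted p = 0.0841 and 0.111). No gene of this list was called in the C57BL/6 cerebellum (limma, 4 of 11 at an unadjusted p below 0.05).

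The class II genes, whose products show peptides taken up from outside the cell, gave 0 calls of 7 in each of these 4 cohorts (limma), with 1, 4, 0 and 0 at an unadjusted p below 0.05 in C57BL/6 cerebellum and BALB, C57BL/6 and CBA hypothalamus. Cd74, the invariant chain, differed by 0.46 (SE 0.26) in the C57BL/6 cerebellum and by 0.83 (SE 0.31) in the BALB hypothalamus. Among class I receptors 2 of 7 rose in the C57BL/6 cerebellum, 1 of 4 in the BALB hypothalamus, 1 of 7 in the C57BL/6 hypothalamus (Cd247, by 2.32, named after its value was seen) and 0 of 3 in the CBA hypothalamus (limma, 1 at an unadjusted p below 0.05). Pirb rose by 1.02 (SE 0.16, adjusted p = 0.0599) in the C57BL/6 cerebellum and by 1.35 (SE 0.20, adjusted p = 0.00312) in the BALB hypothalamus, and Lilrb4a, an inhibitory receptor of myeloid cells, by 1.38 (SE 0.22) in the former. Pirb differed by 0.48 (SE 0.15, B = -2.03) in the CBA hypothalamus.

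Interferon-induced genes were also measured in the cohorts with calls. In the C57BL/6 cerebellum 5 of 15 rose, led by Ifi27l2a (2.02, SE 0.18, adjusted p = 0.00238), with Usp18 (by 1.17), Bst2 and Lgals3bp among them, and the list median was 0.853. Their mean was 9.305 to 10.03 in young and 10.27 to 10.69 in aged mice, without overlap. In the BALB hypothalamus 15 of 15 differences were positive, 0 of 15 genes were called in limma, 6 had an unadjusted p below 0.05 and the median was 0.334, with means of 8.813 to 9.862 in young and 9.118 to 9.848 in aged mice. In the CBA hypothalamus 11 of 11 were positive, 0 were called, 2 had an unadjusted p below 0.05 and the median was 0.274.

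No gene on the marker lists for microglia and T cells was called in these cohorts. Irf8 and Lilrb4a, linked to myeloid cells above, stand on other lists and rose in aged C57BL/6 cerebella. Of 9 microglial genes 0 were called in the C57BL/6 cerebellum and the BALB hypothalamus and 0 of 8 in the CBA hypothalamus (limma, 2 each at an unadjusted p below 0.05), with medians of 0.104, 0.054 and 0.0291. Their summed linear signal was 21100 to 26520 in young and 25580 to 32000 in aged C57BL/6 cerebellum, 28150 to 34330 and 32330 to 39940 in the BALB hypothalamus, and 15060 to 16210 and 8230 to 19040 in the CBA hypothalamus, where Siglech was well above background on no array. T cell genes gave 0 calls of 7 in the C57BL/6 cerebellum (limma, 2 at an unadjusted p below 0.05), with a median of 0.352 and summed signals of 396.5 to 463.5 in young and 417.8 to 645.6 in aged mice. In the BALB hypothalamus none of the 4 T cell genes tested was higher, the sums were 475.9 to 684.9 and 413 to 605.3, and 0 had an unadjusted p below 0.05. In aged C57BL/6 cerebella all 6 choroid plexus genes were lower (median -1.02), 7 of 9 endothelial genes (median -0.121, 3 at an unadjusted p below 0.05) and all 5 oligodendrocyte genes (median -0.164, 2 at an unadjusted p below 0.05), while 3 of 3 red blood cell genes (median 0.534, 2 at an unadjusted p below 0.05) and 9 of 9 cerebellar genes (median 0.39) were higher, with no call in limma. The part of these cells in the class I values was not tested.

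The genes whose signal followed B2m most closely were named from 15756 genes over the 40 arrays of C57BL/6 cerebellum and BALB and C57BL/6 hypothalamus, each array taken as its deviation from its age group. With the B2m probe A_51_P129012, the highest Pearson correlation was that of H2-K1 (r = 0.867), and outside the members they were those of Gbp6 (0.842), Gbp2 (0.828), Parp14 (0.818), Psmb8 (0.802) and Irgm1 (0.788). H2-Q1 (0.787) ranked 7th and H2-T23 (0.758) 14th, and the median over all genes was -0.02. H2-Q7 ranked 32nd, H2-Q8 49th, H2-T10 72nd, H2-D1 80th and H2-Q10 83rd. The median correlation of heavy chain with B2m probes was 0.126 within the C57BL/6 cerebellum. It was 0.321 within the BALB and 0.882 within the C57BL/6 hypothalamus. The points share slides and normalization, and those of the C57BL/6 hypothalamus spread most: within it Irgm1 reached 0.952, against 0.0363 within the C57BL/6 cerebellum.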

How the data were processed

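The deposited array files held, per the file headers, 1-colour intensities from Agilent Feature Extraction (version 9.1 per the labels, and 9.1.3.1, 9.5.1.1, 10.1.1.1 or 10.5.1.1 by cohort per the headers), background-subtracted by the authors as gProcessedSignal. The deposited series table held the authors' values on a log2 scale and served as an alternative. Control spots and outlier spots were left out, spots of a probe were averaged, and log2 intensities were quantile normalized within each cohort, or over both cohorts where 2 were compared. Probes were tested if their signal passed the scanner's background test on n arrays of the groups compared, n being the size of the smaller group. Differences were tested with limma 3.58.1 in R 4.3.3 (lmFit and eBayes, proportion 0.01), called at B above 0, with Benjamini-Hochberg adjustment over all probes. All ages of a cohort shared 1 estimate of spread. By the study's methods the arrays of a group are separate mice, and 1 of 2 technical replicates, picked at random, was kept for each.

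The members and lists were chosen with earlier results of these data known. Named genes were all members, up to 4 called genes of each list or else 2 by brightness, and the 5 genes closest to B2m. Alternatives were 75th percentile scaling, normexp on median signals (the files lack mean signals; offset 50), other filters, slide or scan day as blocks, the replicate block, and leaving out each array. The fits were tested on simulated data.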

Additional observations from a re-analysis of the deposited data

Results flagged for a closer look

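Among 316 groups of 4 to 10 arrays at member probes, 37 (11.7%) held an array far from the others by Dixon's criterion, where chance gives about 1 in 20. The probes of a group share arrays, so these are not separate events.

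On the arrays labelled BALB cerebellum, aged array 1 was lowest for H2-D1 (12.36), H2-K1 A_52_P474242 (9.609) and A_52_P50496 (7.889), H2-Q1 A_51_P425048 (9.825) and A_52_P582814 (12.45), H2-Q10 A_51_P496997 (12.21) and A_52_P428354 (9.672), H2-Q7 (12.26) and H2-T23 (12.74). Middle-aged array 2 was highest for H2-K1 A_52_P474242 (10.91) and A_52_P50496 (9.652), young array 5 for H2-K1 A_52_P50496 (9.659) and aged array 2 for H2-Q1 A_52_P231729 (7.861).

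In the BALB hypothalamus young array 1 was highest for B2m A_52_P105594 (7.045), H2-K1 A_51_P198434 (13.58) and A_52_P50496 (9.532), H2-Q1 A_52_P582814 (12.13) and H2-Q8 (7.618), and lowest for H2-Q10 A_51_P230267 (3.35). Middle-aged array 3 was lowest for H2-Q10 A_51_P230269 (5.114) and aged array 5 highest for H2-Q8 (7.751).

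In the CBA hypothalamus aged array 8 was lowest for H2-K1 A_52_P474242 (9.581) and A_52_P50496 (10.48), H2-Q1 A_51_P425048 (10.46) and A_52_P582814 (11.51) and H2-Q10 A_52_P428354 (8.498). Aged array 1 was highest for B2m A_51_P129006 (10.86) and A_51_P129012 (11.14).

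In the C57BL/6 cerebellum aged array 6 was lowest for B2m A_51_P129012 (13.71) and H2-Q1 A_52_P231729 (7.108), aged array 1 for H2-T23 (13.01), young array 1 for H2-Q10 A_52_P428354 (9.984) and young array 2 for H2-T10 (12.52). In the frontal cortex old array 8 was lowest for H2-K1 A_52_P50496 (9.217) and H2-Q10 A_52_P428354 (10.92). On the arrays labelled BALB striatum aged array 4 was highest for H2-D1 A_52_P246277 (4.758) and middle-aged array 3 lowest for H2-Q1 A_52_P231729 (5.864).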

How the results depend on the processing

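No member probe reversed its direction past a threshold. Counts of calls under other settings or with arrays left out are given without the share of all probes called in the same fit. In the C57BL/6 cerebellum the 5 calls became 1 with slide as a fixed block, 0 with the replicate block and 0 at an adjusted p below 0.05, and 0 to 6 when single arrays were left out. In the BALB hypothalamus the 9 calls ran from 7 to 14 with single arrays left out. In the CBA hypothalamus the 7 calls became 4 with 75th percentile scaling, 11 with the replicate block and 0 at an adjusted p below 0.05, and 4 to 12 with single arrays left out. The 0 calls on the arrays labelled BALB cerebellum became 1 with normexp, 1 with the series table and 1 at an adjusted p below 0.05. Between aged and middle-aged BALB hypothalamus the 0 calls became 4 with slide as a fixed block, 1 with slide as a random block and 1 with the replicate block. Between young BALB and C57BL/6 hypothalamus the 3 calls became 7 at an adjusted p below 0.05 and 2 to 5 with single arrays left out. Between CBA and BALB the 11 calls became 6 with the replicate block and 8 to 12 with single arrays left out. Between C57BL/6 cerebellum and hypothalamus the 4 calls became 2 with the stricter filter, 2 with the replicate block and 8 at an adjusted p below 0.05. The causes were not tested, and the counts of the other comparisons stayed at 0. The scan day block, chosen after seeing the data, left the 9 calls of the BALB hypothalamus at 9. The deviations of same-numbered arrays correlated by -0.07 to 0.051 over 4 pairs in the C57BL/6 cerebellum, -0.046 to 0.41 over 6 in the BALB, -0.46 to 0.051 over 5 in the C57BL/6 and -0.17 to 0.56 over 7 in the CBA hypothalamus, -0.24 to 0.59 over 3 in the striatum, -0.36 to 0.16 over 4 in the BALB cerebellum and 0.25 to 0.82 over 2 in the frontal cortex. In no cohort with 3 or more pairs was every pair above 0.1, so the replicate number was not taken as a pairing of mice.

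H2-D1, H2-Q1 (A_52_P582814), H2-Q7, H2-T10 and H2-T23 stayed called in 13 of 13 fits that left out an array of the BALB hypothalamus, and H2-D1, H2-Q7, H2-Q1 and B2m (A_51_P129012) in 15 of 15 in the CBA hypothalamus. In the C57BL/6 cerebellum B2m (A_51_P129006) and H2-Q8 did so in 8 of 10 and H2-D1 in 2 of 10. Of the authors' columns, 4 of 12 of the C57BL/6 cerebellum and 6 of 8 of the frontal cortex matched their own scanner file best, which limits that alternative.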
